A study of Mus musculus with 2 samples.

Results

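Apoe and 8 further genes of cellular cholesterol handling (Abca1, Abcg1, Nr1h3, Npc1, Npc2, Lrp1, Scd2 and Soat1) were followed across the cells sorted from mouse brain. The members were taken by gene symbol, and all 9 were found among the 32285 genes counted. For each gene, unique molecular identifiers (UMIs, tags that mark single captured transcripts) were summed over the cells of one type in one library and divided by all UMIs of those cells, which gives counts per 1000000 UMIs (CPM). The share of cells holding at least 1 UMI was counted as well. Intervals are 95% exact intervals (Poisson for a level, Clopper-Pearson for a share, conditional binomial for a ratio) and cover counting error only.

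Cholesterol leaves a cell when the membrane transporters Abca1 and Abcg1 load it onto apolipoprotein E, the main lipid carrier that glia secrete in the brain. The liver X receptors, of which Nr1h3 encodes the alpha form, sense oxysterols and switch on the efflux genes, Apoe among them. Lipoproteins taken up through receptors such as Lrp1 are broken down in the lysosome, Npc2 and Npc1 pass the freed cholesterol out of it, and Soat1 esterifies the surplus for lipid droplets, while the desaturase Scd2 makes monounsaturated acyl chains for esters and phospholipids.

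Whole brains of 6 Disc1 WT/WT males and of 6 male littermates homozygous for the Disc1 locus impairment allele (Disc1 LI/LI) were pooled by genotype at 23 weeks of age. Each genotype was 1 library, so no spread between mice was measured and no test between genotypes was possible; each genotype difference below is one between 2 libraries. Dissociation was done in actinomycin D, which holds back new transcription, in both genotypes alike, and CD45-low CD11b+ cells were sorted for droplet capture. The methods name 2 kinds of chip, and which one served which library is not given in the sources used here. Paired values give Disc1 WT/WT first and Disc1 LI/LI second, and genotype ratios are Disc1 LI/LI divided by Disc1 WT/WT on the log2 scale.

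The libraries stood apart in what they held. After a minimum of 200 genes and a maximum of 10% mitochondrial UMIs per barcode, 7032 and 7817 cells were kept, with medians of 4234.5 and 4566 UMIs, and 12 barcode sequences occurred in both. Disc1 itself had 642 and 22 UMIs. The labels call both samples microglia, and microglia were 86.3% (6072 cells) and 24.9% (1943 cells), whereas neutrophils were 1.65% (116 cells) and 46.3% (3622 cells). Border macrophages, those of the meninges, perivascular spaces and choroid plexus, numbered 294 and 48. The other 550 and 2204 cells held classical monocytes (43 and 1313), nonclassical monocytes (32 and 42), MHC class II-high antigen-presenting cells (166 and 140), T cells (44 and 74) and smaller types, with 235 and 358 cells left without a type.

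The types were cut from marker shares, which are continuous. Microglia had at least 0.5% of their UMIs from P2ry12, Gpr34, Tmem119, Siglech, Fcrls and Olfml3 and under 1% from S100a8 and S100a9, neutrophils had at least 3% from the last pair, and border macrophages had UMIs of at least 3 of Mrc1, Pf4, Ms4a7, Cbr2, Cd163 and Folr2. Between 0.4% and 0.6% of microglial marker UMIs lay 293 and 164 cells, and between 2% and 4% of S100a8 and S100a9 UMIs lay 4 and 44. The rules of microglia and of border macrophages were both met by 108 and 7 cells, which were counted as border macrophages. Markers outside the rules were summed as a check of the names. C1qa, C1qb, C1qc, Cx3cr1 and Sparc summed to 34506 and 43311 CPM in microglia, and 8 neutrophil genes to 82920 and 97396 CPM in neutrophils. The former genes also summed to 27575 and 27807 CPM in border macrophages, so their sum separates microglia from border macrophages only weakly. Per cell, the median of those neutrophil genes in microglia was 0 in Disc1 WT/WT and 675 CPM in Disc1 LI/LI, and the median of 6 independent border macrophage genes was 0 in both. The median of these border macrophage genes was 1198 and 830 CPM in border macrophages, and 0 and 642 CPM in the other cells. The 6 astrocyte markers summed to 284 and 250.01 CPM in microglia, with Aqp4, Gfap and Gja1 at 0 in Disc1 LI/LI, and the 6 neuron markers to 2.51 and 3.33.

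Apoe marked the border macrophages more than the microglia. Its level was 22776 (22532 to 23021) CPM in border macrophages of the Disc1 WT/WT library and 22284 (21713 to 22866) in those of the Disc1 LI/LI library, against 499 (491 to 507) and 574 (557 to 590.3) in microglia. Border macrophages exceeded microglia by 5.51 (5.48 to 5.54) and 5.28 (5.22 to 5.34) on the log2 scale. Between these extremes lay the MHC class II-high cells at 12432 and 5862 CPM, the nonclassical monocytes at 4185 and 4043 and the classical monocytes at 1188 and 989. The order of these 5 types was the same in both libraries, and the counting intervals of neighbours in it did not overlap. The MHC class II-high cells were mixed in Apoe. Of them, 94 of 166 and 34 of 140 had at least 30 Apoe UMIs and held 95.4% and 97.9% of the Apoe UMIs of this type.

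**Figure D1:**
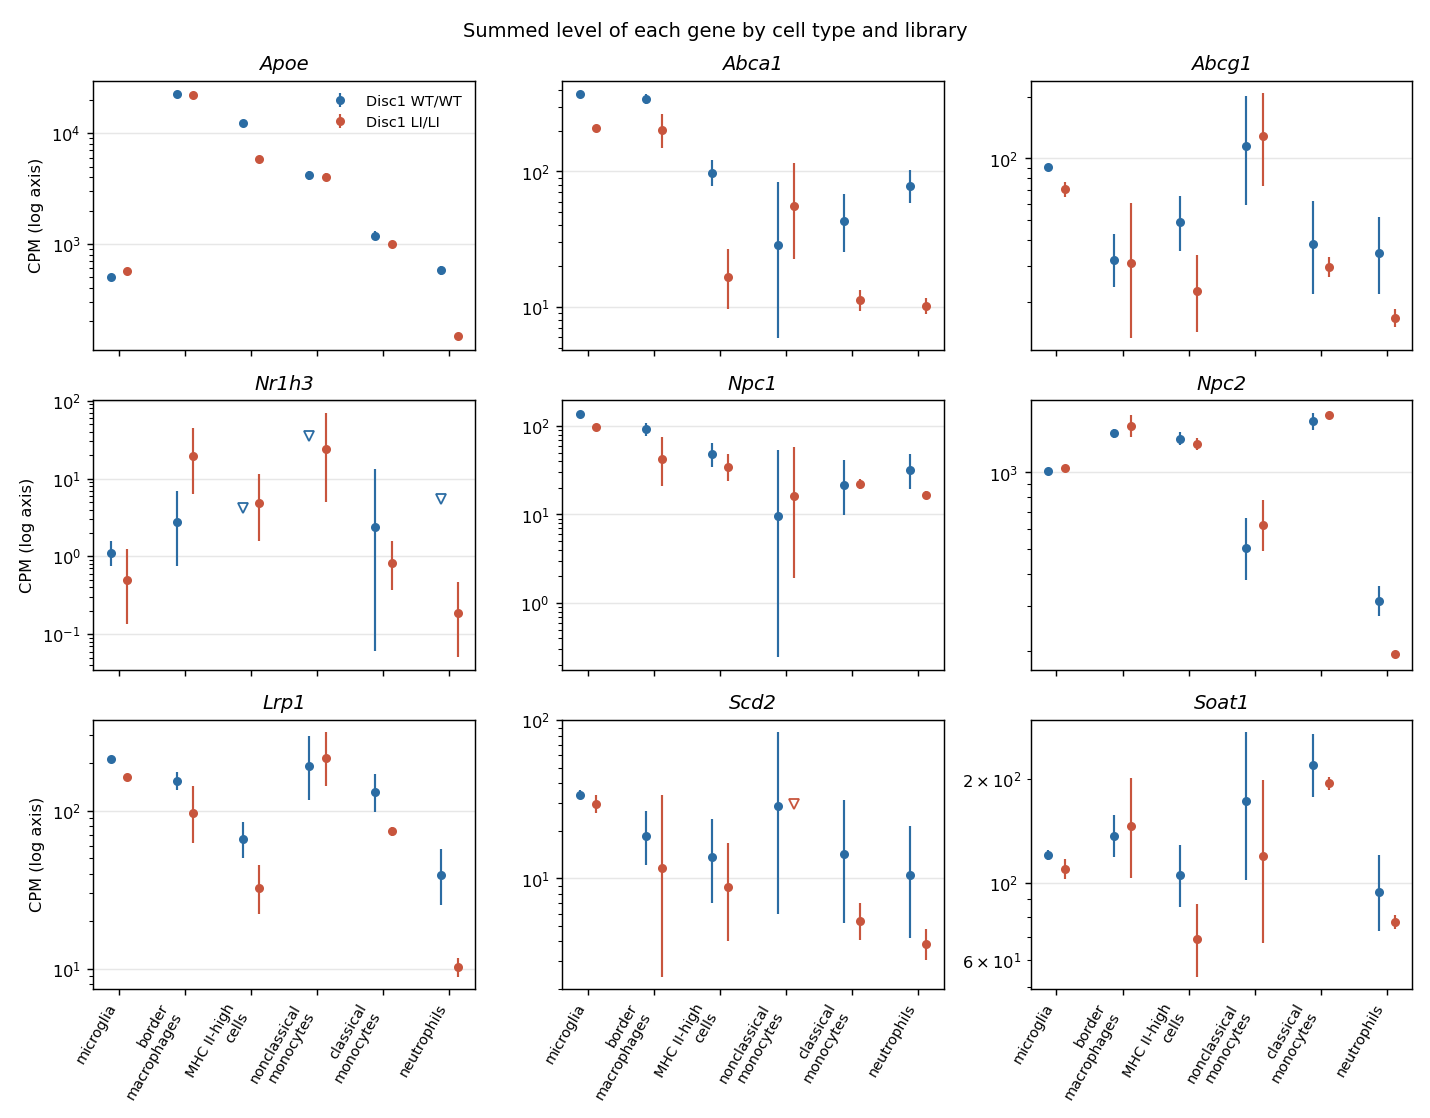
Level of each gene in 6 cell types, in CPM on a log axis, for the Disc1 WT/WT (blue) and Disc1 LI/LI (red) libraries; points are 1 library each, bars are 95% Poisson intervals, and open triangles are the upper bound where no UMI was counted. Apoe falls from 22776 and 22284 in border macrophages to 499 and 574 in microglia, while Npc2 and Soat1 are highest in classical monocytes in both libraries.

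Most Apoe UMIs came from minor populations. In the Disc1 WT/WT library, border macrophages were 4.18% of cells and held 52.0% of the 64234 Apoe UMIs, and microglia held 22.3%. Of the 35595 Apoe UMIs in the Disc1 LI/LI library, classical monocytes held 30.4%, MHC class II-high cells 16.8%, border macrophages 16.2% and microglia 13.1%. Summed over all sorted cells the level was 1912 and 746 CPM, which moved with the mixture of cells.

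Shares of cells with an Apoe UMI gave a similar order apart from the MHC class II-high cells. With each cell thinned to 1000 UMIs, 98.6% and 100% of border macrophages had an Apoe UMI, beside 84.4% and 76.2% of nonclassical monocytes and 37.2% and 39.2% of classical monocytes. The MHC class II-high cells were at 75.5% and 32.4%, and 94 and 34 of them with at least 30 Apoe UMIs held 95.4% and 97.9% of their Apoe. In microglia the thinned share was 14.7% (13.8 to 15.7) and 13.3% (11.8 to 14.9), and the unthinned share 32.7% and 27.7% at median depths of 4258.5 and 3779 UMIs.

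The thinned share in microglia was little above that of T cells, whose barcodes were not free of microglial transcripts. T cells, thinned in the same way, had an Apoe UMI in 11.4% (3.79 to 24.6) and 12.2% (5.71 to 21.8) of cells, and unthinned in 18.2% and 21.6% at median depths of 4669.5 and 4569. The thinned microglial shares lay within these intervals, so they are not read as expression in that many cells. T cell barcodes also held the 5 independent microglial markers at 13.03% to 22.5% and 14.2% to 18.9% of their microglial level. T cells were not the only possible reference. In Disc1 LI/LI, 1 of 59 natural killer (NK) cells held 69 of the 74 Apoe UMIs of that type, and 2 of 140 B cells held 81 of 315. The neutrophil shares were 7.83% and 4.26% thinned, and 18.1% and 11.7% unthinned at median depths of 4844.5 and 4194. They lay below the T cell shares, but in Disc1 WT/WT the thinned intervals overlapped (3.64 to 14.3 and 3.79 to 24.6). The source of the neutrophil Apoe UMIs was not tested. In Disc1 LI/LI the thinned neutrophil interval (3.62 to 4.97) also lay below that of microglia (11.8 to 14.9). In Disc1 WT/WT these intervals overlapped (3.64 to 14.3 and 13.8 to 15.7).

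**Figure D2:**
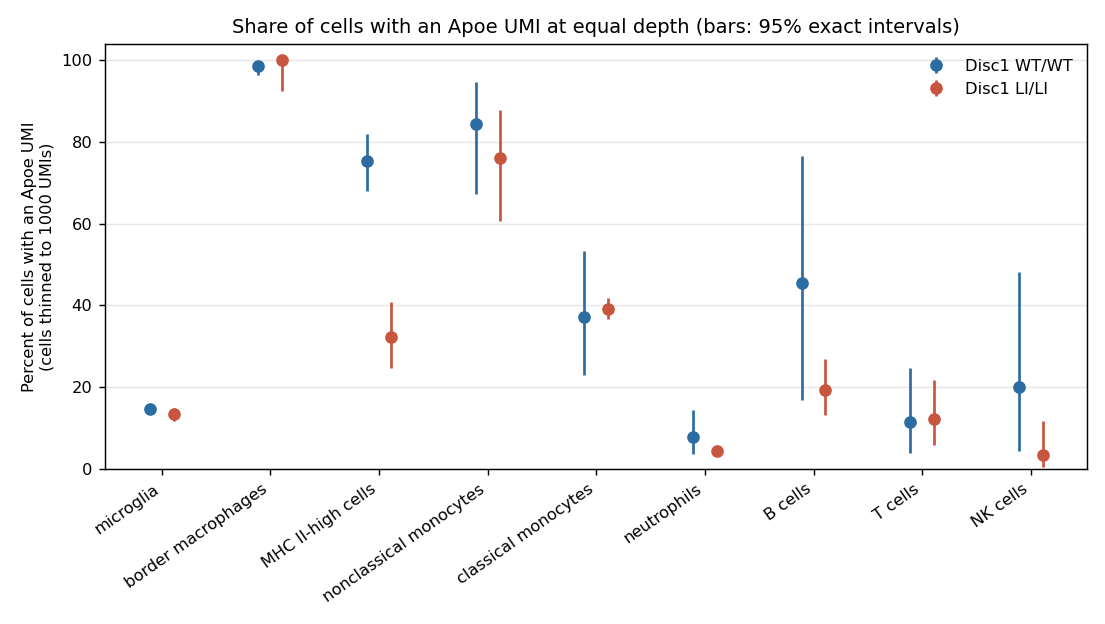
Percent of cells with at least 1 Apoe UMI after each cell was thinned to 1000 UMIs, by cell type, for the Disc1 WT/WT (blue) and Disc1 LI/LI (red) libraries; bars are 95% exact binomial intervals. Border macrophages are at 98.6% and 100%, and microglia at 14.7% and 13.3% lie within the intervals of the T cells.

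Among microglia, Apoe was carried by few cells. The median microglial cell had 0 Apoe UMIs in both libraries, and the 1% of cells with most Apoe held 43.5% and 52.4% of the microglial Apoe UMIs. Cells with at least 30 Apoe UMIs numbered 91 of 6072 and 30 of 1943, and they held 7357 of 14327 and 2896 of 4655 Apoe UMIs, or 51.4% and 62.2%. At the other end, 67.3% (66.1 to 68.5) and 72.3% (70.3 to 74.3) of microglia had none.

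**Figure D3:**
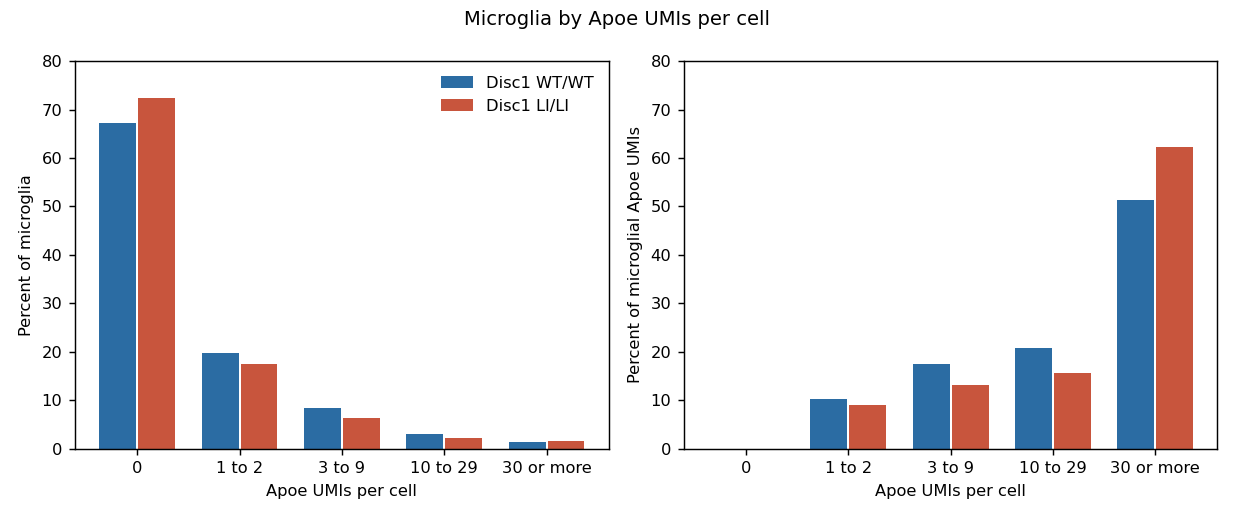
Microglia grouped by Apoe UMIs per cell, as percent of microglia (left) and percent of all microglial Apoe UMIs (right), for the Disc1 WT/WT (blue) and Disc1 LI/LI (red) libraries. The 91 and 30 cells with 30 or more Apoe UMIs hold 51.4% and 62.2% of the UMIs.

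The Apoe-rich microglia also carried more transcripts of other macrophages and of a disease-associated list. From cells without Apoe to cells with at least 30 Apoe UMIs, the 6 border macrophage markers went from 11.0 to 376 CPM in Disc1 WT/WT and from 10.2 to 332 in Disc1 LI/LI. The 9 disease-associated microglial genes listed below went from 99.1 to 645 and from 116 to 348. Disc1 LI/LI cells with 10 to 29 Apoe UMIs had 666 CPM of them, and border macrophages had 349 and 432. Cd74, the MHC class II invariant chain, went from 52.8 to 3891 and from 174 to 5381, and Lyz2, a lysozyme of monocytes and macrophages, from 252 to 2806 and from 489 to 3536. P2ry12, a purinergic receptor of microglia and part of the class rule, went from 4135 to 2377 and from 3270.1 to 1920.5. C1qa, a complement gene of microglia and other macrophages, went from 10420.2 to 10809 and from 14186.5 to 13471. The median depth of these cells also differed, from 4106 to 6405 and from 3683 to 5440.5 UMIs. Cd74, Lyz2, P2ry12 and C1qa were picked after seeing their values, and the part of doublets, of depth and of border macrophages with few markers was not tested.

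Apoe followed the boundary of the microglial class. Where the 6 microglial markers took 0.5% to 1% of a cell's UMIs (1774 and 762 cells), Apoe stood at 1148 and 1157 CPM. In cells at 1% or more (4298 and 1181 cells) it stood at 242 and 169. Abca1 did not show this fall, with 338 and 200.05 CPM in the lower range and 382 and 215 at 1% or more. The 108 and 7 cells that met both rules had Apoe at 13162 and 9478 CPM, between the microglia and the remaining 186 and 41 border macrophages at 31318 and 25783.

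The summed Apoe level of microglia was higher in the Disc1 LI/LI library, with a genotype ratio of 0.20 (0.15 to 0.25), and this direction was not stable. Without the cells holding 30 or more Apoe UMIs the ratio was -0.16, with the marker share raised to 1% it was -0.52, and with the cells that met both rules counted as microglia it was -0.33. As a mean over cells it was 0.017. The unthinned share of microglia with an Apoe UMI was lower in Disc1 LI/LI, whose microglia were shallower. At equal depth the intervals of the shares overlapped (13.8 to 15.7 and 11.8 to 14.9). No order of the genotypes is read from the level. In border macrophages the ratio was -0.03 (-0.07 to 0.01) and in nonclassical monocytes -0.05 (-0.24 to 0.14). In classical monocytes it was -0.27 (-0.40 to -0.13), where 1 of the 43 Disc1 WT/WT cells held 165 of the 498 Apoe UMIs. In MHC class II-high cells it was -1.08 (-1.13 to -1.04), where 94 of 166 and 34 of 140 cells had at least 30 Apoe UMIs. The part of these cells in either ratio was not tested.

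Abca1, which moves cholesterol and phospholipid onto lipid-poor apolipoprotein, was the member that differed most between the genotypes in microglia among those past the low filter. It had 369.7 (363 to 377) CPM from 10609 UMIs and 209 (199 to 219) CPM from 1693 UMIs, a genotype ratio of -0.83 (-0.90 to -0.75). Cells with an Abca1 UMI were 71.3% and 50.5% of microglia, and 28.8% and 18.6% after thinning to 1000 UMIs. The counting intervals of the libraries did not overlap on either scale, and the 10 alternative settings gave ratios of -0.83 to -0.66. Border macrophages had 344 and 201 CPM and a genotype ratio of -0.78 (-1.22 to -0.36).

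Outside microglia and border macrophages Abca1 was low. MHC class II-high cells had 97.6 and 16.7 CPM, classical monocytes 43.0 and 11.2, nonclassical monocytes 28.8 and 56.0 from 3 and 7 UMIs, and neutrophils 77.9 and 10.3. The Abca1 level therefore did not follow that of Apoe. Microglia, with the least Apoe of these macrophage and monocyte types, had as much Abca1 as border macrophages within counting error, at log2 ratios of border macrophages over microglia of -0.10 (-0.24 to 0.02) and -0.06 (-0.48 to 0.34), whose direction turned under TMM scaling and thinning.

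Abcg1, which loads cholesterol onto particles that already carry lipid, had 90.6 (87.1 to 94.1) and 70.7 (65.1 to 76.8) CPM in microglia, a genotype ratio of -0.36 (-0.49 to -0.23). It was lower in border macrophages, at 32.1 and 30.9 CPM, with log2 ratios over microglia of -1.50 (-1.95 to -1.08) and -1.20 (-2.41 to -0.21). The highest values, 115 and 128 CPM, were those of nonclassical monocytes, from 12 and 16 UMIs, and in Disc1 WT/WT their interval (59.5 to 201) took in the microglial level. MHC class II-high cells had 48.8 and 22.6, classical monocytes 38.2 and 29.7 and neutrophils 34.5 and 16.7 CPM.

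Nr1h3, the liver X receptor alpha gene, was near the limit of detection and passed the filter of 10 CPM in none of the comparisons. Microglia had 32 and 4 Nr1h3 UMIs (1.12 and 0.493 CPM), with a genotype ratio of -1.18 (-3.14 to 0.32). Neutrophils had 0 UMIs in Disc1 WT/WT, where 3 counts would be 4.50 CPM, and 4 UMIs in Disc1 LI/LI. The 5 UMIs in Disc1 LI/LI border macrophages came from 1 cell, and the 4 in Disc1 WT/WT from 4 cells. In Disc1 LI/LI the MHC class II-high cells, at 4.91 (1.60 to 11.5) CPM from 5 UMIs, and the nonclassical monocytes, at 24.0 (4.95 to 70.2) CPM from 3 UMIs, lay above the microglial interval (0.134 to 1.26), while both types had 0 UMIs in Disc1 WT/WT. A genotype difference in microglia was not detectable at this depth.

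The lysosomal pair went apart. Npc2, the soluble protein that picks up cholesterol in the lysosome, had a UMI in 95.5% and 95.6% of microglia, and its level of 1013 (1002 to 1025) and 1041 (1019 to 1063) CPM gave a genotype ratio of 0.04 (0.00 to 0.07). Classical monocytes had 1587 and 1676 CPM, border macrophages 1423 and 1525, MHC class II-high cells 1355 and 1296, nonclassical monocytes 509 and 624 and neutrophils 315 and 195. Within each of these types except neutrophils the libraries differed by less than 1.5-fold.

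Npc1, the membrane protein that receives this cholesterol, was highest in microglia, at 137 (133 to 141) and 98.5 (91.7 to 106) CPM. The genotype ratio was -0.48 (-0.59 to -0.36), short of 1.5-fold. Border macrophages had 92.1 and 42.5 CPM from 135 and 11 UMIs, MHC class II-high cells 47.7 and 34.4, classical monocytes 21.5 and 21.9 and neutrophils 31.5 and 16.5. Classical monocytes were thus above microglia in Npc2, by 0.65 and 0.69 on the log2 scale, and below them in Npc1, at -2.67 and -2.17.

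Lrp1, an endocytic receptor that binds apolipoprotein E, stood at 211 (206 to 217) and 162 (154 to 171) CPM in microglia, a genotype ratio of -0.38 (-0.47 to -0.29). Nonclassical monocytes had 192 and 216 CPM with intervals that took in the microglial values, border macrophages 155 and 96.5, classical monocytes 131 and 74.0, and MHC class II-high cells 65.8 and 32.4. Border macrophages over microglia gave -0.45 (-0.65 to -0.26) and -0.75 (-1.38 to -0.18), so the type richest in Apoe was below microglia in this receptor.

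Scd2, a stearoyl-CoA desaturase, had 33.9 (31.8 to 36.1) and 29.6 (25.9 to 33.6) CPM in microglia, with a genotype ratio of -0.20 (-0.41 to 0.01) that did not exclude 0. Border macrophages had 18.4 and 11.6 CPM from 27 and 3 UMIs, classical monocytes 14.3 and 5.39, and neutrophils 10.5 and 3.85 from 7 and 83 UMIs. Both border macrophage values rest on too few UMIs to place them against the monocytes.

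Soat1, which esterifies cholesterol for storage, was spread over all these types. Microglia had 121 (117 to 125) and 109.7 (103 to 117) CPM, a genotype ratio of -0.14 (-0.25 to -0.03), which turned to 0.025 under TMM scaling. Border macrophages had 137 and 147 CPM, MHC class II-high cells 106 and 68.8, nonclassical monocytes 173 and 120.1, and neutrophils 94.4 and 77.2. Classical monocytes, at 219.6 (177 to 269) and 194 (186 to 203), were above microglia by 0.86 (0.55 to 1.16) and 0.82 (0.71 to 0.94) on the log2 scale.

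Across the genes, 1 of the 8 members that passed the filter of 10 CPM in microglia was past 1.5-fold between the genotypes, namely Abca1, lower in Disc1 LI/LI, and 0 were higher. Over all 7841 genes compared, 15.4% were past 1.5-fold lower (1207 genes) and 1.25% higher (98 genes), so 1 lower gene of 8 is near the background. Scaling by TMM, a trimmed mean of ratios, with the low filter applied to the scaled levels, gave 206 higher and 452 lower, 31.3% higher among those past the fold in place of 7.51%, and moved the median ratio of all compared genes from -0.18 to -0.02 (log2). The median of the 8 members was -0.28 on the scale of total UMIs. Under TMM, Apoe stood at 0.36, Abca1 at -0.66 and Npc2 at 0.20, and Soat1 changed sign.

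The genotype ratio fell with the length of the gene over all genes compared. Genes were split by span into 4 classes of equal size, and in the shortest class the median log2 ratio was 0.13, then -0.085, -0.30 and -0.46 in the longest, where 32.8% of genes were past 1.5-fold lower. Apoe (ENSMUSG00000002985) spans 3080 bases at chr7:19696109-19699188 (mm10) and is in the shortest. Npc2 (ENSMUSG00000021242) spans 18591 bases at chr12:84754562-84773152 and Scd2 (ENSMUSG00000025203) spans 13191 bases at chr19:44293674-44306864, both in the second. Soat1 (ENSMUSG00000026600) spans 49807 bases at chr1:156424525-156474331 and Npc1 spans 46709 bases, both in the third. Abca1 (ENSMUSG00000015243) spans 129109 bases at chr4:53030787-53159895, Lrp1 (ENSMUSG00000040249) spans 82988 bases at chr10:127538161-127621148 and Abcg1 (ENSMUSG00000024030) spans 60314 bases at chr17:31057675-31117988, all in the longest. Abca1, at -0.83, lay below the median of its length class (-0.46), whereas Lrp1 at -0.38 and Abcg1 at -0.36 lay above it. The part of gene length in these ratios was not tested.

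**Figure D4:**
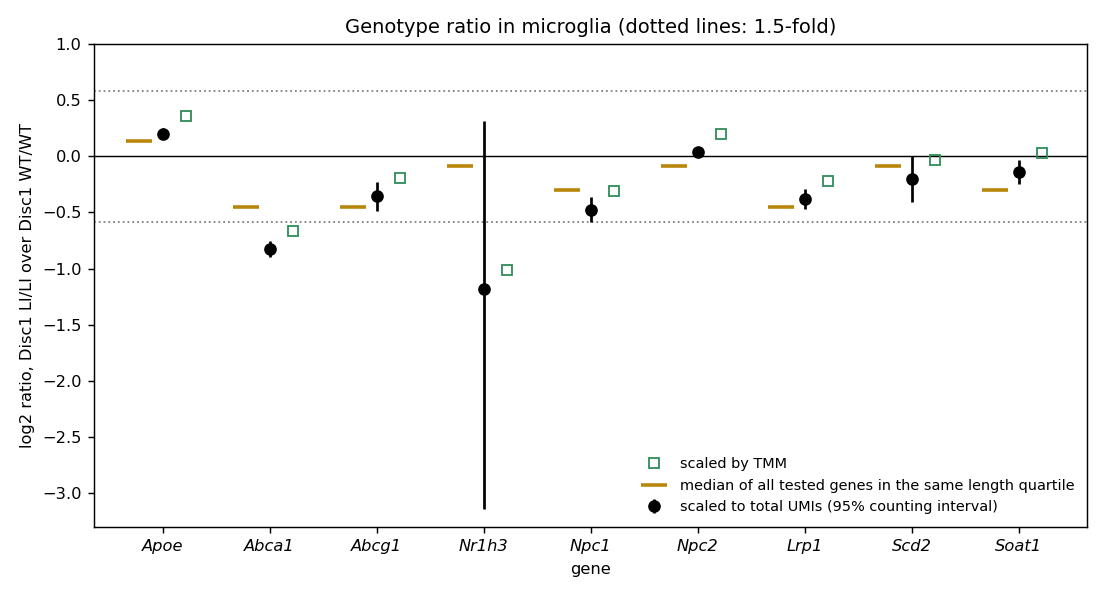
Log2 ratio of the Disc1 LI/LI library over the Disc1 WT/WT library in microglia for each gene: black points are ratios of CPM with 95% counting intervals, green squares the same after TMM scaling, and ochre dashes the median of all compared genes in the same length class. Abca1, at -0.83, lies below the median of its class at -0.46, and Apoe and Npc2 are the genes above 0 on the scale of total UMIs.

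Neutrophils were lower than microglia by at least 2-fold in both libraries for 6 of the 8 members that passed the filter (Abca1, Abcg1, Npc1, Npc2, Lrp1 and Scd2), and higher for 0. The background was 46.6% of 6933 genes lower and 9.89% higher. Under TMM scaling 3 members were past 2-fold lower, where 14.3% of the 6933 genes were lower and 18.6% higher. Apart from Apoe, Soat1 was closest to the microglial level, at 78.3% (60.03 to 100.4) and 70.4% (64.8 to 76.4) of it, and under TMM scaling it was above it, at log2 ratios of 0.53 and 0.88.

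The neutrophil barcodes also held microglial transcripts. The 5 independent microglial markers stood in neutrophils at 19.3% to 21.5% of their microglial level in Disc1 WT/WT and at 3.47% to 3.96% in Disc1 LI/LI, a narrow range in each library. Abca1, at 21.1%, lay in that range in Disc1 WT/WT and Lrp1, at 18.4%, just below it, and there neither is read as neutrophil expression. In Disc1 LI/LI Abca1 stood at 4.93% (4.27 to 5.68) and Lrp1 at 6.28% (5.42 to 7.25), above the range. Npc2 (31.1% and 18.7%), Abcg1 (38.1% and 23.7%) and Soat1 lay above it in both libraries. Npc1 and Scd2 had intervals that took in the range in Disc1 WT/WT and lay above it in Disc1 LI/LI. The genotype ratios of Abca1 and Lrp1 within neutrophils, -2.92 and -1.93, moved with this difference between the libraries, and its part in them was not tested.

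Apoe in neutrophils was 576 and 146 CPM and rested on few cells. In Disc1 WT/WT 3 neutrophils held 341 of the 384 Apoe UMIs, and in Disc1 LI/LI 23 held 1896 of 3150. Without neutrophils that held 30 or more Apoe UMIs, their log2 ratio over microglia went from 0.21 to -2.90 and from -1.97 to -3.28. Such cells were kept in the microglia, where they held 51.4% and 62.2% of the Apoe UMIs. A fall was thus fixed in advance, and its size is not read.

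**Figure D5:**
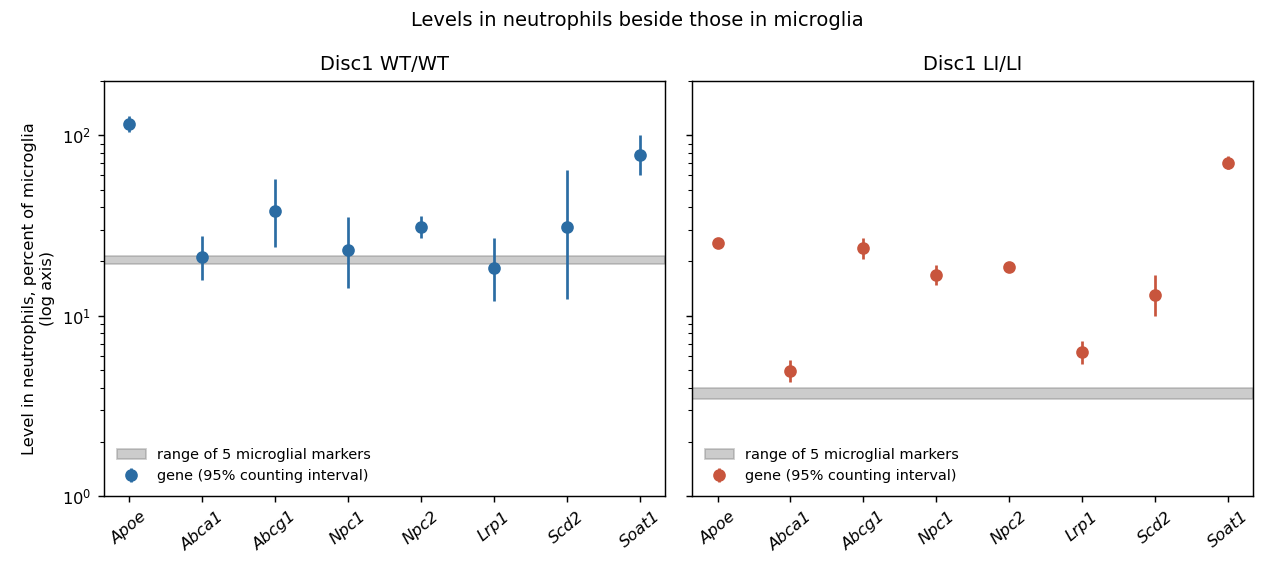
Level of 8 genes in neutrophils as a percent of the level in microglia of the same library, on a log axis, with 95% counting intervals; the grey band is the range of 5 independent microglial markers (19.3% to 21.5% in Disc1 WT/WT, 3.47% to 3.96% in Disc1 LI/LI). Abca1 and Lrp1 lie in or near the band, and Soat1 lies far above it in both libraries.

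In border macrophages against microglia, 1 member of 8 was past 2-fold higher in both libraries (Apoe) and 1 lower (Abcg1), where 3.86% and 3.52% of 7283 genes were. In classical monocytes against microglia, 4 of 8 were lower in both libraries (Abca1, Abcg1, Npc1 and Scd2) and 0 higher, where 21.3% and 12.4% of 7367 genes were. Apoe was above microglia in classical monocytes by 1.25 and 0.79 on the log2 scale. The independent microglial markers stood in classical monocytes at 4.79% to 11.0% and 1.74% to 4.54% of the microglial level, and Abca1 at 11.6% and 5.39%.

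Other members varied with Apoe inside some types. In the 356 classical monocytes of Disc1 LI/LI with at least 10 Apoe UMIs, Npc2 was 2253 (2193 to 2314) CPM and Lrp1 125 (111 to 139.6), against 1366 (1333 to 1399) and 42.7 (37.1 to 49.0) in the 485 cells without Apoe, although the former were shallower, with medians of 6221.5 and 8503 UMIs. Soat1 was 209.9 and 179. The cells without Apoe were richer in the proliferation gene Mki67, at 298 against 32.9 CPM, a gene picked after seeing its values. Disc1 WT/WT had 13 and 17 such cells, with Npc2 at 2239 and 1311.

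The MHC class II-high cells differed in the same way. Those with at least 30 Apoe UMIs (94 and 34 cells) had Abca1 at 135 and 86.7 CPM and Npc2 at 1771 and 1999.7. Those without Apoe (32 and 83 cells) had Abca1 at 19.7 and 1.46 and Npc2 at 981 and 1085. The Apoe-rich cells carried Ms4a7, a border macrophage marker, at 1423 and 1006 CPM against 3.28 and 7.28, and less Cd209a, a gene of monocyte-derived dendritic cells, at 15.0 and 34.7 against 633 and 1054. Both genes were picked after seeing their values, and the grouping by Apoe fixes the Apoe contrast itself.

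Within microglia Npc2 rose with Apoe, and the other members moved less clearly. From cells without Apoe to those with at least 30 UMIs, Abca1 went from 364 to 408 CPM and from 209 to 245, and Npc2 from 983 to 1432 and from 999.7 to 1251. The intervals at these ends did not overlap for Npc2 in either library and overlapped in both for Abca1, Abcg1, Npc1, Lrp1, Scd2 and Soat1. Microglia with UMIs of at least 3 of 9 disease-associated genes (Cst7, Lpl, Itgax, Spp1, Gpnmb, Axl, Igf1, Csf1 and Ccl3) numbered 46 and 7 and had Apoe at 1886 and 3869 CPM, against 480.1 and 552 in the rest, at median depths of 7354 and 6346 against 4246.5 and 3776.5 UMIs. Abca1 in the same cells was 343 and 135, against 370.1 and 209.

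Border macrophages were also split by H2-Aa, an MHC class II gene. Cells with an H2-Aa UMI (148 and 32) had Apoe at 24709 and 22778.5 CPM, and cells without it (146 and 16) at 20431 and 20441. Npc2 was 1514 and 1616 with H2-Aa and 1312 and 1185 without. Among cells without a type, the 58 and 72 cells with at least 10 Apoe UMIs had 78636 and 5319 CPM of Ttr, the transthyretin gene of choroid plexus epithelium, which was picked after seeing its values.

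The wider pathway lists, 81 genes in 8 lists with the members among them, gave few genotype differences in microglia. Of 8 genes of sterol synthesis past the low filter, 2 were past 1.5-fold lower in Disc1 LI/LI: Hmgcs1, an early enzyme of the pathway (34.7 and 22.1 CPM, log2 ratio -0.66, -0.89 to -0.42), and Cyp51, a later one (13.8 and 7.89 CPM, log2 ratio -0.81, -1.22 to -0.43). Over all compared genes 15.4% were lower and 1.25% higher. Under TMM scaling, added for the lists after seeing the data, Hmgcs1 stood at -0.49, inside 1.5-fold, Cyp51 at -0.65, past it, and Fdps, another enzyme of the pathway, at 0.65, past it in the other direction. Among the 7841 genes compared before scaling, 6.72% were then past it lower and 3.04% higher. Of 5 genes of esterification and storage Plin3, which coats lipid droplets, was higher (13.2 and 21.2 CPM, log2 ratio 0.68, 0.41 to 0.94). Of 8 genes of efflux and the liver X receptors Abca1 was past 1.5-fold. None was past it among 4 genes of lipoprotein uptake, 7 of lysosomal egress, 3 of sterol sensing, 3 of fatty acid synthesis and 1 of sterol hydroxylation. List medians ran from -0.27 (lysosomal egress) to 0.10 (lipoprotein uptake), beside -0.18 for all genes.

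Between cell types the lists differed more. Border macrophages exceeded microglia in Pltp, the phospholipid transfer protein, at 128 and 181 against 1.05 and 1.73 CPM, and in the scavenger receptors Cd36 (88.7 and 57.9 against 1.64 and 0.246, the last from 2 UMIs) and Msr1 (87.3 and 69.5 against 2.89 and 1.85). Of 10 genes of efflux and the liver X receptors 3 were past 2-fold higher in both libraries (Apoe, Pltp and Apoc2). Another 3 were lower (Abcg1, Mylip and Lpcat3), a count that fell to 1, Abcg1, under TMM scaling. Of 6 uptake genes 2 were higher and 0 lower, of 7 lysosomal egress genes 0 passed either way, and of 10 sterol synthesis genes Idi1 and Cyp51 were higher and 0 lower. The background was 3.86% higher and 3.52% lower. The sterol hydroxylase gene Cyp27a1 was at 49.1 and 61.8 against 21.6 and 18.1.

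Classical monocytes exceeded microglia in Apoc2, a further apolipoprotein, at 301 and 253 against 1.25 and 2.96 CPM, and in Plin2, which coats lipid droplets, at 284 and 241 against 32.5 and 34.7. Of 11 genes of efflux and the liver X receptors 3 were past 2-fold higher in both libraries (Abca7, Apoc1 and Apoc2). Another 5 were lower (Abca1, Abcg1, Mylip, Lpcat3 and Arl4c). Of 5 esterification and storage genes Plin2 and Nceh1 were higher and 0 lower, and of 7 lysosomal egress genes 4 were lower (Npc1, Stard3, Gramd1a and Scarb2) and 0 higher, beside 12.4% of all compared genes higher and 21.3% lower. Neutrophils also exceeded microglia in Plin2, at 89.9 and 97.8 CPM, and in Sorl1, a sorting receptor, at 325 and 296 against 33.0 and 36.6. Of 7 lysosomal egress genes 6 were past 2-fold lower in neutrophils in both libraries, the members Npc1 and Npc2 among them, where 46.6% of all compared genes were. Lamp1, a lysosomal membrane protein, stood at 432 and 192 against 1656 and 1209.6 CPM. Under TMM scaling 4 of the 7 were past 2-fold lower, beside 14.3% of all the genes compared, and Npc2 at -0.80 and Lipa, the lysosomal acid lipase, at -0.46 in Disc1 WT/WT lay inside 2-fold.

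The genes most like each member were ranked by Pearson's r of log2(CPM + 1) over 12 library and cell type groups of at least 50 cells, among 5245 genes that reached 50 CPM in a group. The groups share libraries and depth, so r is a description. Most like Apoe were Pltp (0.93), Ms4a7 (0.92), Cd36 (0.91), genes of lipid transfer, border macrophages and scavenger uptake. Ms4a7 is part of the border macrophage rule, so a high level of it in that type was partly fixed in advance. Only the Disc1 WT/WT border macrophages were among the groups, since those of Disc1 LI/LI numbered under 50. Abca1 was most like Abcc3 (0.98), Rock2 (0.98), Rnf13 (0.98), Abcg1 most like Sema4d (0.94) and Map4k4 (0.93), and Npc1 most like Bmp2k (0.98) and Mef2a (0.98). Npc2 was most like Gltp (0.96), Fam174a (0.95), Necap2 (0.95), Lrp1 most like Susd3 (0.98), 9930111J21Rik2 (0.96), Ctss (0.96), and Soat1 most like Lsm10 (0.93), I830077J02Rik (0.93), Tet2 (0.92). Nr1h3 and Scd2 reached 50 CPM in no group and were not ranked.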

How the data were processed

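The sequencing reads were turned by the authors into UMI counts per gene and cell barcode with Cell Ranger 6.1.2 against mm10 (STAR and Seurat 3.0.1 are also in the submitters' processing notes), and these counts were deposited without normalization. Cells were filtered and typed as described, with neutrophils taking precedence over border macrophages and these over microglia. A cell of no class was given 1 of 8 types where at least 3 of 6 markers were present and no other type had as many. The 9 members, the lists and the types were chosen with earlier results of these data known. Named genes were the members, list genes past 1.5-fold (genotype) or past 2-fold in both libraries (types), at most 4 a list by size, and the 3 genes most like each member. A gene was compared where the mean of the 2 levels compared was at least 10 CPM, in each library for types. The ratio and its interval were tested on simulated independent Poisson counts, which is the error that the interval assumes. The simulation held no clustering of UMIs in few cells, so it does not cover the spread of Apoe between cells. Gene spans came from GENCODE for mm10, matched for 32158 of 32285 genes. Doublets were kept: Scrublet called 0 Disc1 WT/WT cells and 4.32% of those of Disc1 LI/LI, so it had not worked in the former. An alternative dropped the highest 5% of scores with ties at the limit kept, which left out 268 of 7032 and 373 of 7817 cells. Other alternatives changed scaling, filters, marker limits, cell weights and depth. Some genes of the lists, and some of those most like a member, are not reported here. Software comprised edgeR 4.0.16 (TMM factors only) in R 4.3.3, and scanpy 1.11.5, anndata 0.12.19, pandas 2.3.3, scipy 1.17.1, numpy 2.4.6 and matplotlib 3.10.9 in Python 3.11.15.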

Additional observations from a re-analysis of the deposited data

Results flagged for a closer look

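The genotype ratio of Apoe was 0.20 in microglia, while it was -1.98 in neutrophils, -0.27 in classical monocytes, -1.08 in MHC class II-high cells and -0.82 in T cells, values of opposite sign. The sign in microglia changed in 3 of 12 alternatives, so no difference in direction between cell types is read from these values. The ratio of Npc2 was 0.039 in microglia and -0.69 in neutrophils. These differences between cell types were not tested, because each genotype has 1 library. In Disc1 WT/WT 2 T cells and 3 neutrophils held 87.5% and 88.8% of the Apoe UMIs of their type, and in Disc1 LI/LI 3 and 23 cells held 89.2% and 60.2%. Among classical monocytes, 4 of 43 and 111 of 1313 cells held 59.4% and 45.8%.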

How the results depend on the processing

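Apoe in microglia, as the genotype ratio (0.20), was higher in 9 and lower in 3 of 12 alternatives. It was 0.36 under TMM, 0.25 thinned, 0.017 as a mean over cells, 0.020 without the highest Scrublet scores, -0.52 at a marker share of 1%, -0.33 with cells of both rules as microglia, and -0.16 without cells of 30 or more Apoe UMIs (chosen after seeing the data).

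Apoe of neutrophils over microglia (0.21 and -1.97) was 1.09 and -0.58 under TMM, 1.25 and -0.21 at a 1% marker share, -0.47 and -2.12 with cells of both rules as microglia, -0.29 and -2.37 as a mean over cells, -0.18 and -2.45 thinned, and -0.13 and -2.58 without the highest Scrublet scores. It was -2.90 and -3.28 without neutrophils of 30 or more Apoe UMIs, with such microglia kept (chosen after seeing the data).

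Apoe of border macrophages over microglia (5.51 and 5.28) stayed positive in each alternative run: 5.64 and 5.42 under TMM, 6.56 and 7.04 at a 1% marker share, 5.30 and 5.35 with cells of both rules as microglia, 5.97 and 5.49 with those cells left out (chosen after seeing the data), 5.63 and 5.51 as a mean over cells, 5.86 and 5.56 thinned, and 5.59 and 5.55 without the highest Scrublet scores.

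Shares of microglia with an Apoe UMI (32.7% and 27.7%) were 29.4% and 22.5% at a 1% marker share and 14.7% and 13.3% thinned. Members lower in neutrophils numbered 3 under TMM in place of 6, beside 14.3% of all compared genes in place of 46.6%. Those lower in border macrophages numbered 2 in place of 1 when thinned or without the highest Scrublet scores. With no low filter 2254 genes were past 1.5-fold higher and 5186 lower in microglia, and under TMM (chosen after seeing the data) 206 and 452. The cause of these changes was not tested. For the other 8 members, 379 of 386 values kept their direction, and the 7 others were 4 of Abca1 in border macrophages against microglia and 3 of Soat1 under TMM. No paired analysis was possible because each genotype has 1 library. Depth limits Nr1h3, the 32 and 42 nonclassical monocytes and the 48 Disc1 LI/LI border macrophages.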
